A study of Mus musculus with 13 samples.

Results

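The TRAV13 family is one of the groups of variable gene segments that the T cell receptor alpha (TCRα) locus of the mouse can rearrange. Its clonotypes were followed here in rescued regulatory T (Treg) cells. Members were all functional clonotypes, that is rows whose CDR3 translates without a stop codon or frameshift, whose V gene bears the number 13 and is not one of the segments shared with the TCRδ locus (DV). By this rule 5267 of 78521 functional clonotypes in 13 samples were TRAV13, between 287 and 546 per sample. They held 4600 distinct nucleotide CDR3s, told apart also by V and J gene, and 3800 distinct CDR3 amino-acid sequences. A further 421 functional clonotypes of TRAV13-4-DV7 and 1223 non-functional TRAV13 clonotypes were not members.

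All samples came from male Foxp3LSL/y Cd4creERT2 mice on the C57BL/6 background. In these mice a loxP-flanked stop cassette that encodes Thy1.1 keeps Foxp3, the transcription factor that defines Treg cells, from being expressed, and a 4-hydroxytamoxifen (4-OHT) dependent Cre recombinase driven from Cd4 removes it. Every animal received a single dose of 4-OHT on postnatal day 14, so that there was no untreated group. Cells that had regained Foxp3, marked by GFP, were isolated by sorting from spleen together with lymph node tissue at 1.5 months (n = 2, age 8 weeks), 3 months (n = 4, age 3.5 months), 5 months (n = 2, age 5.5 months) and 7 months (n = 5, age 7.5 months) after treatment. Time after treatment and age cannot be told apart, and the labels do not state whether a sample is 1 animal, so p-values measure the spread between these samples. Since only TCRα transcripts were sequenced, the Treg identity of the cells could not be checked against marker genes.

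Total counts per sample ran from 509818 to 936831, of which 477052 to 882170 belonged to functional clonotypes. Between 3 and 54 TRAV13 clonotypes per sample, the most in 3 months replicate 1, had a count in another library that was at least 100 times as large, and whether they were carried over between libraries was not tested.

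A TCRα chain is made when one V segment is joined to one J segment, with bases trimmed from the ends and random bases inserted between them. The joined stretch encodes CDR3, the loop that contacts the peptide, while CDR1 and CDR2 are encoded by the V segment alone. The V array of the mouse holds duplicated blocks, and the letters D and N after the family number mark the copies that lie farther from the J segments. The J segments are numbered downwards toward the constant region, so that a high TRAJ number lies close to the V genes. Rearrangement on an allele can be repeated, each time with a V segment farther upstream and a J segment farther downstream.

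The germline ends of the family fall into 3 kinds. These are the last 30 bases of the V transcripts in the GENCODE annotation of GRCm38, 5′ to 3′, shown because they encode the first residues of the CDR3 unless trimmed. Capitals mark the germline part of the CDR3, from the codon of the conserved cysteine on.
TRAV13-1: actcaggcacttatctcTGTGCTTTGGAAC
TRAV13D-2: actcaggcacttatctcTGTGCTATAGATC
TRAV13-2: actcaggcacttatttcTGTGCTATAGATC
TRAV13N-1: actcaggcacttatctcTGTGCTATGGAAC
TRAV13-1 encodes the start CALE. TRAV13D-2 and TRAV13-2 encode CAID. TRAV13N-1 and the other 6 genes to which clonotypes were assigned encode CAME, so that each germline end has an acidic residue, glutamate or aspartate, at position 4 counted from the cysteine. The start CAID accounted for 42.1% ± 3.66 of TRAV13 clonotypes (SD, n = 13), CALE for 32.2% ± 3.01 and CAME for 25.6% ± 2.38. The first 3 germline residues were retained in 83.1% ± 2.12 of CALE, 75.6% of CAME and 70.7% ± 4.90 of CAID clonotypes. The fourth was retained as well in 47.7% ± 5.20 of CALE, 40.6% of CAME and 29.6% ± 4.07 of CAID clonotypes.

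Together TRAV13 clonotypes made up 6.69% ± 0.495 of functional clonotypes (SD, n = 13). This share ranked as the sixth highest of the 19 classes formed by the V families and the DV genes. At 1.5 months the share was 6.83% and 7.08% in replicates 1 and 2. At 3 months it was 7.10%, 6.87%, 6.08% and 6.35% in replicates 1 to 4. At 5 months it was 6.77% and 6.07%, and at 7 months 7.12%, 6.63%, 7.32%, 5.69% and 7.02% in replicates 1 to 5. Both 5 months samples lay below both 1.5 months samples, the ranges at 3 and 7 months overlapped those of each other time point, and the lowest and the highest sample both belonged to 7 months. The 95% Wilson interval of a single sample, which covers counting error only, was 6.29% to 7.40% in 1.5 months replicate 1 and 5.09% to 6.37% in 7 months replicate 4.

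**Figure D1:**
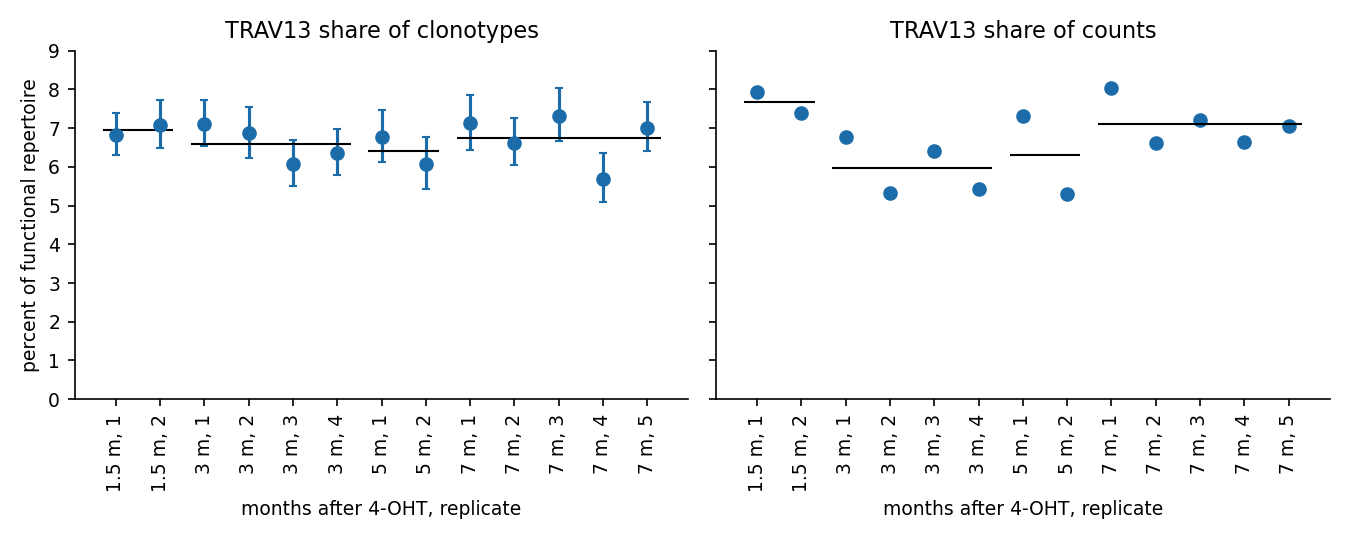
Percent of functional clonotypes (left, with 95% Wilson intervals) and percent of functional counts (right) that were TRAV13, by sample, with months after 4-OHT and replicate number on the x axis and horizontal lines at the mean of each time point. Clonotype shares lie between 5.69% and 7.32%, with the 5 months pair below the 1.5 months pair and the other time points overlapping, and count shares between 5.30% and 8.03%.

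To ask whether the family gained or lost ground as the single cohort of Treg cells aged, the number of clonotypes per family was compared between time points. Against 1.5 months the log2 change was -0.06 ± 0.08 (SE) at 3 months, -0.10 at 5 months and -0.04 at 7 months, with adjusted p-values of 0.756, 0.923 and 0.942 (edgeR quasi-likelihood test, Benjamini-Hochberg adjustment over 19 classes). Between 7 and 3 months it was 0.02 with an adjusted p of 0.837. Of all 19 classes, 5.26% were called at 3 months and 5.26% at 7 months, and none at 5 months or between 7 and 3 months. TRAV13 was not among them. Leaving out 1 sample at a time moved these small changes without changing their sign against 1.5 months, from -0.0996 to -0.0217 at 3 months, from -0.183 (without 5 months replicate 1) to -0.0373 (without 5 months replicate 2) at 5 months and from -0.0721 to -0.0166 at 7 months. With counts summed in place of clonotypes the log2 changes were -0.37 at 3 months, -0.13 at 5 months and -0.11 at 7 months, and 0.25 between 7 and 3 months, with adjusted p-values by edgeR of at least 0.262.

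In total 10 genes carried the family, and their use was uneven. TRAV13D-2 (chr14:52942764-52943289 of GRCm38, plus strand) held 1722 clonotypes, or 32.7% ± 3.16 of the family (SD, n = 13). TRAV13-1 (chr14:53545014-53545525) held 1687, or 32.2% ± 3.01. Their ranges over samples, 26.6% to 38.7% and 27.2% to 36.9%, overlapped almost entirely. TRAV13-2 (chr14:53634829-53635399) followed with 504 clonotypes and 9.45% ± 1.78, and TRAV13N-1 (chr14:53162399-53162910) with 447 and 8.38% ± 2.02. TRAV13D-1 (chr14:52851290-52851866) held 322 clonotypes and 6.12% ± 2.28. TRAV13N-4 had 202, TRAV13N-3 168, TRAV13-3 112, TRAV13D-4 92 and TRAV13D-3 11. No functional clonotype was assigned to TRAV13N-2. All of these genes lie on the plus strand of chromosome 14 between positions 52851290 and 53730074, and the J segments begin at 54155005.

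Names of single copies carry uncertainty. The transcripts of the 10 genes were 89.1% to 100% identical in pairs, with a median of 93.0% over 45 pairs. TRAV13D-1 and TRAV13N-1 differed at 1 base, and TRAV13-3 and TRAV13D-3 had no mismatch. Among 816 CDR3 nucleotide sequences found in more than 1 sample and named TRAV13 in at least 1 of them, 346 (42.4%) bore more than 1 V name. In 152 all names were TRAV13 genes, among them 37 that were TRAV13-2 in one sample and TRAV13D-2 in another and 33 that alternated between TRAV13D-1 and TRAV13N-1. The other 194 (23.8%) also bore a name from another class, most often TRAV12, with 89 sequences. This share was 31.5% for TRAV7, 28.9% for TRAV12, 45.7% for TRAV14 and 25.4% for TRAV6. Whether such sequences were separate rearrangements or 1 rearrangement named differently was not tested.

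Clonotypes named TRAV13D-1 were small. Their median count was 3 and 41% of them had a single count, so that the gene held 6.12% of TRAV13 clonotypes but 1.27% ± 0.494 of TRAV13 counts. TRAV13N-1 had a median count of 97, with 1.34% of clonotypes at a single count. Per sample the median count ran from 1 to 18.5 for TRAV13D-1 and from 57 to 131 for TRAV13N-1, and these ranges did not overlap. The median counts of TRAV13D-2, TRAV13-1 and TRAV13-2 were 63, 62 and 55.

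None of the 9 genes with enough clonotypes to be tested passed the threshold at any time point, by edgeR or by DESeq2, and none of 90 V genes tested in all was called in any comparison (0% by edgeR). At an unadjusted p under 0.05 both tools singled out 1 TRAV13 gene, TRAV13-2 at 5 months against 1.5 months, a comparison in which 8 of all 90 V genes had such a p by edgeR. TRAV13D-3 was too rare to be tested.

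The J segments joined by the family differed with the copy of the V gene. The mean TRAJ number was 32.7 ± 0.858 (SD, n = 13) for TRAV13 genes without a copy letter, which lie nearest to the J array, and 21.7 ± 0.942 for the D and N copies. The difference of 11.0 ± 1.34 had the same direction in 13 of 13 samples (permutation test by sign flips, two-sided p = 0.000244, the smallest that 13 samples allow). The closest pair was 7 months replicate 1, with 30.9 against 21.9, and the farthest apart 3 months replicate 3, with 33.6 against 20.2. Per gene, from the farthest to the nearest of the 5 most used, the mean was 21.9 for TRAV13D-1, 20.8 for TRAV13D-2, 22.5 for TRAV13N-1, 31.9 for TRAV13-1 and 36.3 for TRAV13-2. TRAV13-3, which lies closest to the J segments but shares its whole aligned sequence with TRAV13D-3, had a mean of 28.4 ± 5.29. Its value was below those of TRAV13-1 and TRAV13-2, and within the D copies the farthest gene, TRAV13D-1, was not the lowest, so single genes did not follow a strict order by position.

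**Figure D2:**
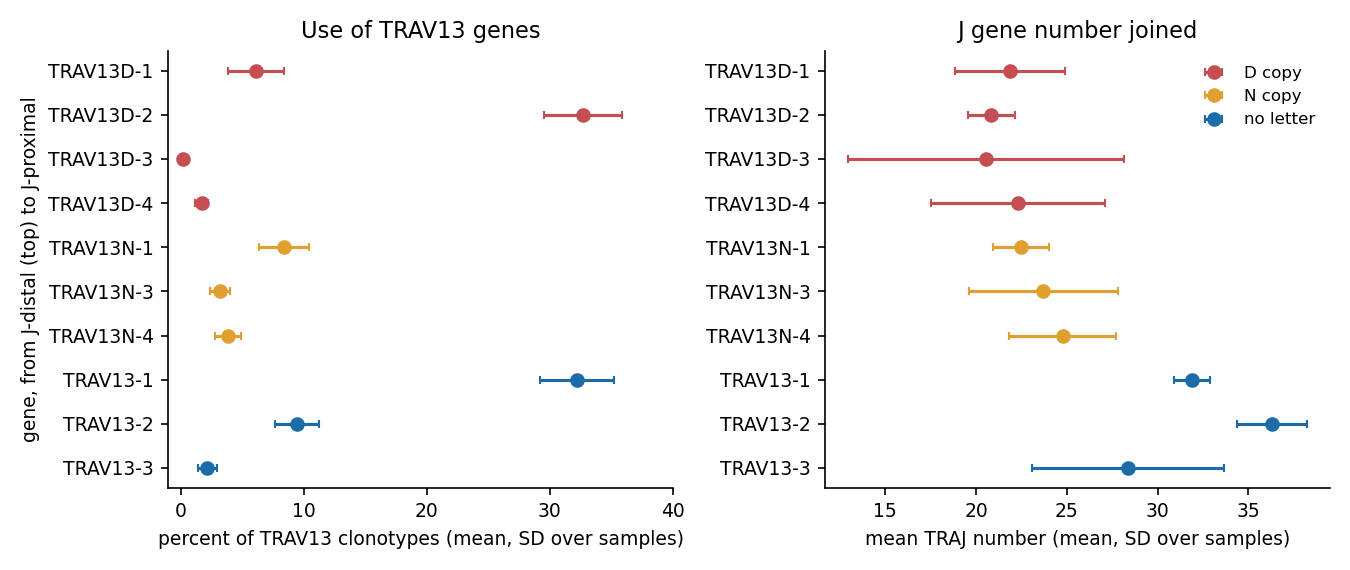
Share of TRAV13 clonotypes held by each gene (left, percent) and mean TRAJ number joined (right), as mean and SD over samples, with genes in chromosomal order from farthest (top) to nearest the J segments and colours for the copy letter. TRAV13D-2 and TRAV13-1 each hold about 32% of clonotypes, and the genes without a copy letter join higher TRAJ numbers than the D and N copies.

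Segments TRAJ41 to TRAJ58, the part nearest to the V genes, took 25.9% ± 2.67 of clonotypes on genes without a letter, 9.06% ± 3.94 on N copies and 6.16% ± 1.98 on D copies. Segments TRAJ2 to TRAJ20, the far part, took 14.6% ± 3.20, 39.8% ± 5.25 and 48.4% ± 5.59. In both parts the samples' ranges on unlettered genes, 21.4% to 29.7% and 9.23% to 22.3%, did not overlap those on D copies, 2.79% to 8.96% and 40.4% to 57.3%.

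As a whole the family also differed from the other TRAV clonotypes, taken as 1 pool, in its J partners. J use varied among families, with mean TRAJ numbers from 21.7 in TRAV2 to 49.2 in TRAV19 and 26.5 in TRAV13. Whether other single families differ from the rest in as many J genes was not tested. Of 43 J genes tested, 18 (41.9%) were called, 8 higher (18.6%) and 10 lower (23.3%) among TRAV13 clonotypes than among all other TRAV clonotypes of the same samples, and 21 had an unadjusted p under 0.05 (edgeR quasi-likelihood test with the sample as a block, Benjamini-Hochberg adjustment). The balance of directions depended on the filter, with 11 higher and 8 lower when rare J genes were kept and 9 higher and 6 lower among clonotypes of at least 10 counts. The 5 J genes with the smallest p in each direction are described. TRAJ6 took 3.21% ± 0.922 of TRAV13 and 2.04% ± 0.232 of other clonotypes, a log2 difference of 0.65 ± 0.12 (SE, adjusted p = 3.12e-06 by edgeR), and was higher in 12 of 13 samples. TRAJ9 took 4.02% ± 1.32 against 2.93% ± 0.238 and was higher in 10 of 13 samples, with a log2 difference of 0.46 ± 0.11. TRAJ27 (0.42 ± 0.11), TRAJ42 (0.46 ± 0.12) and TRAJ39 (0.44 ± 0.12) were higher in 12, 12 and 11 of 13 samples. Each of the 5 TRAJ segments called most firmly as higher thus took 3.03% to 5.17% of the family.

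Of the J genes that were lower, 5 are described. TRAJ57 took 0.659% ± 0.378 of TRAV13 and 1.55% ± 0.116 of other clonotypes, a log2 difference of -1.21 ± 0.21 (adjusted p = 6.51e-07 by edgeR), and was lower in 13 of 13 samples. Its neighbour TRAJ56 had a log2 difference of -0.93 ± 0.19 and TRAJ49 one of -0.91 ± 0.16, each lower in 12 of 13 samples. TRAJ7 (-0.80 ± 0.18) was lower in 11 and TRAJ26 (-0.61 ± 0.14) in 12 of 13 samples. The remaining calls were TRAJ34, TRAJ4 and TRAJ33 (higher) and TRAJ40, TRAJ48, TRAJ11, TRAJ5 and TRAJ58 (lower).

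**Figure D3:**
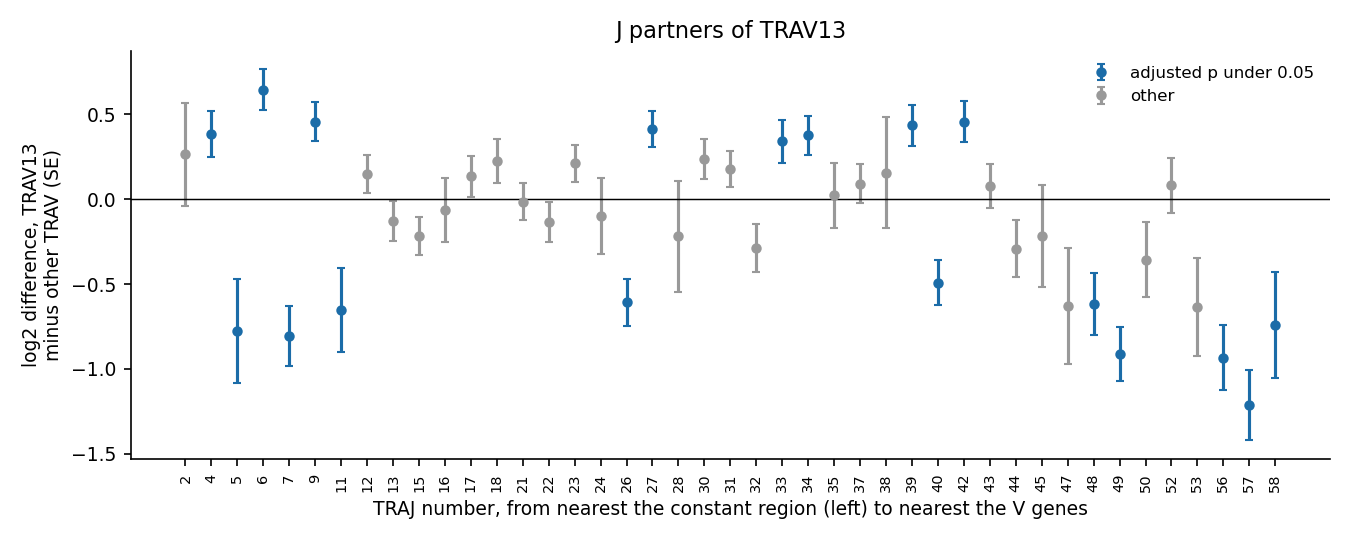
Log2 difference in J use, TRAV13 minus other TRAV clonotypes, with SE, for 43 J genes ordered by TRAJ number, with blue points at an adjusted p under 0.05. Of the 18 blue points 8 lie above 0 and 10 below, from 0.65 for TRAJ6 to -1.21 for TRAJ57.

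When counts were summed in place of clonotypes, none of the 43 J genes was called in either direction, with adjusted p-values by edgeR from 0.0625 to 0.442 for the 10 described. These kept their directions, and apart from TRAJ39 (0.21) and TRAJ42 (0.32) their log2 differences were larger in size than by clonotypes, for example 0.75 for TRAJ9, -1.52 for TRAJ57 and -1.75 for TRAJ56. Most of them were also unevenly spread over the copies. TRAJ6 took 5.19% ± 1.65 of clonotypes on D and N copies and 0.657% ± 0.745 on unlettered genes, and TRAJ9 5.91% ± 1.8 and 1.59% ± 1.35. TRAJ42 showed the opposite order, with 1.34% ± 0.971 on D and N copies and 5.24% ± 1.79 on unlettered genes, as did TRAJ39 with 1.43% and 5.58%. TRAJ27 was alike on both, at 5.17% ± 1.25 and 5.22% ± 2.17. Among the J genes lower in the family, TRAJ57 took 0.392% and 1.01% and TRAJ49 0.598% and 2.09%, whereas TRAJ7 took 1.49% on D and N copies and 0.325% on unlettered genes.

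In all, 345 V-J pairs were seen. The most frequent were TRAV13D-2 with TRAJ21, at 2.76% ± 0.836 of TRAV13 clonotypes (SD, n = 13), TRAV13-1 with TRAJ31 at 2.36% ± 0.505, and TRAV13D-2 with TRAJ12 at 2.32% ± 1.08. All of these occurred in each of the 13 samples, and their spreads overlapped.

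TRAJ50 was examined because TRAV13 with TRAJ50 forms the α chain of a known population of CD1d-restricted natural killer T cells. It occurred in 47 TRAV13 clonotypes with 5469 counts in all. Between 0 and 5 were found per sample, and 5 months replicate 1 had none. This allows up to 0.000552% of its functional counts (3 counts), a limit that covers counting error only. Most lay on TRAV13-1 (25) and TRAV13-2 (12). Of their 41 distinct CDR3 amino-acid sequences 39 occurred in 1 sample, 1 in 2 samples and 1 in 6. Of all TRAV13 CDR3 amino-acid sequences, 79.8% occurred in 1 sample, and whether the TRAJ50 share differed from this was not tested. TRAJ50 took 0.927% ± 0.476 of TRAV13 and 1.13% ± 0.236 of other TRAV clonotypes, a log2 difference of -0.36 ± 0.22 (adjusted p = 0.164 by edgeR). It was -0.21 without 3 months replicate 1 and -0.05 among clonotypes of at least 10 counts, and no alternative brought it past the threshold.

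Because a rearrangement with a frameshift or stop codon makes no receptor, the share of TRAV13 among non-functional clonotypes was set beside that among functional ones. TRAV13 made up 10.3% ± 1.2 of non-functional and 6.70% ± 0.496 of functional TRAV clonotypes (SD, n = 13). The functional share was lower in 13 of 13 samples, by 3.58 ± 1.28 percentage points (permutation test by sign flips, two-sided p = 0.000244, the smallest possible). In 12 samples the non-functional share lay between 8.84% and 11.97%, and in 1.5 months replicate 2 it was 7.67% against a functional 7.09%. The functional proportion of all rows differed among genes. It was 86.6% for TRAV13N-1, 85.6% for TRAV13-1 and TRAV13D-1, 85.0% for TRAV13D-2 and 76.7% for TRAV13-2. It was 71.2% for TRAV13N-3, 62.2% for TRAV13D-4, 60.8% for TRAV13N-4, 55% for TRAV13D-3 and 53.3% for TRAV13-3, which the annotation lists as a V pseudogene. The difference kept its direction and passed the test without TRAV13-3.

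TRAV13 clonotypes had short CDR3s. Their mean length was 12.997 ± 0.0818 residues (SD, n = 13) against 13.5 ± 0.0257 for other TRAV clonotypes. The difference was -0.534 ± 0.0926 residues and was negative in 13 of 13 samples (permutation test by sign flips, adjusted p = 0.000549). With each other family weighted equally it was -0.830 residues (permutation test by sign flips, adjusted p = 0.00110). No sample of TRAV13, with means from 12.9 to 13.2, reached the lowest other value of 13.5. CDR3s of 12 residues made up 21.4% of TRAV13 and 13.9% of other clonotypes, and those of 15 residues 7.14% and 14.1%. TRAV13 had the lowest mean length of the 19 classes, but TRAV8, at 13.001 ± 0.0914, was within its spread. Fewer CDR3 bases were assigned to V, 10.7 ± 0.150 against 12.4 ± 0.0486, and the part of this in the length was not tested. The germline CDR3 ends of TRAV13 genes hold 13 bases. Those of other families were not compared, so these values do not measure a difference in trimming.

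**Figure D4:**
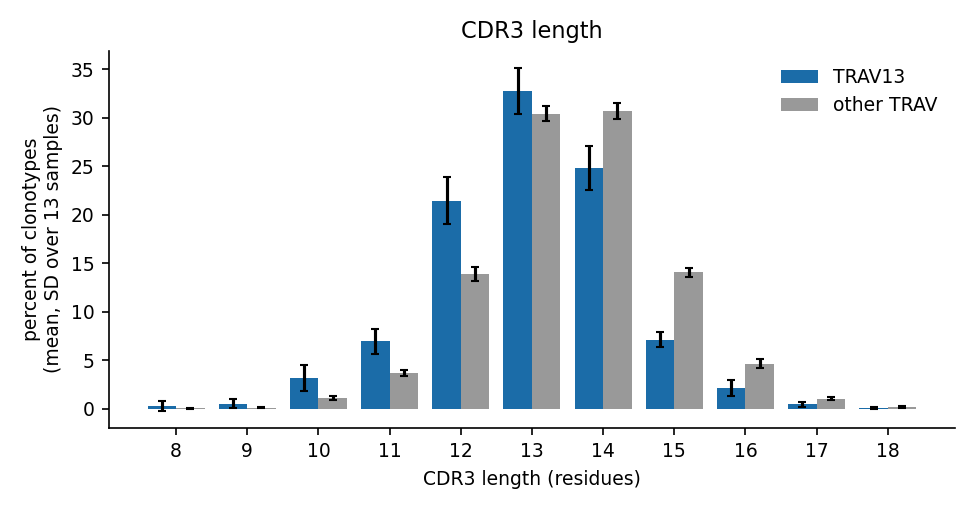
Percent of clonotypes (mean over 13 samples, error bars SD) by CDR3 length in residues, for TRAV13 (blue) and other TRAV clonotypes (grey). TRAV13 is more frequent at 12 residues (21.4% against 13.9%) and less frequent at 15 (7.14% against 14.1%).

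The CDR3s of the family were also less positively charged than those of the other families pooled. Their mean net charge, counting lysine and arginine against aspartate and glutamate, was 0.571 ± 0.0414 charges against 0.722 ± 0.0111, a difference of -0.151 ± 0.0444 that was negative in 13 of 13 samples (permutation test by sign flips, adjusted p = 0.000549). With counts as weights the difference was -0.0957 (adjusted p = 0.0456), and with each other family weighted equally it was -0.0765. TRAV13 ranked 8 from the lowest of 19 classes, above TRAV6 at 0.553, the DV genes at 0.563, TRAV8 at 0.380 and TRAV4 at 0.158. An acidic residue at position 4 occurred in 50.1% ± 2.31 of TRAV13 and 10.2% ± 0.455 of other clonotypes. From position 5 on the order was the opposite, with a mean charge of 1.01 ± 0.0562 in TRAV13 and 0.665 ± 0.00994 in other clonotypes.

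Insertions and the centre of the loop showed no difference that passed the test against all other families pooled. TRAV13 CDR3s had 2.23 ± 0.187 inserted bases against 2.15 ± 0.0541, a difference of 0.0834 ± 0.201 (adjusted p = 0.193), and 30.4% ± 2.40 against 31.0% ± 1.07 had no inserted base (adjusted p = 0.614, permutation tests by sign flips). In 5 months replicate 2 the difference in inserted bases was 0.672, and without that sample the mean differences were 0.0344 bases and -0.183 percentage points. With each other family weighted equally, both passed the test, at 0.162 more inserted bases and -3.25 percentage points without insertions (adjusted p = 0.0146 each), and with counts as weights the difference in inserted bases was 0.206 (adjusted p = 0.0497). The mean hydropathy of positions 6 and 7, on the Kyte-Doolittle scale, was -1.24 ± 0.0470 against -1.25 ± 0.0234, a difference of 0.000592 ± 0.0460 (adjusted p = 0.960). The difference in hydropathy depended on which families stood for the others. It was 0.0525 (adjusted p = 0.00549) against the 3 largest, TRAV7, TRAV14 and TRAV12, and -0.153 (adjusted p = 0.00146) with each family weighted equally.

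The test of clone sizes against all other families pooled did not pass the threshold. The mean log2 count per clonotype was 4.80 ± 0.508 for TRAV13 and 4.87 ± 0.476 for other TRAV clonotypes, a difference of -0.07 ± 0.15 (adjusted p = 0.193). Against the 3 largest families alone the difference was -0.19 (adjusted p = 0.00352). Restricted to clonotypes of at least 10 counts, the difference was 0.11 in the other direction (adjusted p = 0.0215). Clonotypes above 0.1% of functional counts, called expanded here, made up 1.53% ± 0.892 of TRAV13 and 1.63% ± 0.502 of other clonotypes (adjusted p = 0.705, permutation tests by sign flips). There were 78 expanded TRAV13 clonotypes in all, 35 on TRAV13D-2 and 15 on TRAV13-1. The number per sample ran from 0 in 3 months replicate 2 to 12 in 5 months replicate 1.

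The most abundant TRAV13 clonotype of each time point is shown, since these clones weigh most in the count shares. Capitals mark inserted bases.
1.5 months, replicate 1, TRAV13-2 and TRAJ49, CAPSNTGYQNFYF: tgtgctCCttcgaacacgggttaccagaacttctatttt
3 months, replicate 3, TRAV13D-2 and TRAJ23, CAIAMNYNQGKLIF: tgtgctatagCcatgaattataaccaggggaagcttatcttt
5 months, replicate 1, TRAV13D-2 and TRAJ4, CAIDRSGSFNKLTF: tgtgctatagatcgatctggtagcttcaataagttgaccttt
7 months, replicate 5, TRAV13-1 and TRAJ9, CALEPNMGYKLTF: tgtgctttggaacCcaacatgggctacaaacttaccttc
The 1.5 months clone had 5627 counts, or 1.02% of functional counts (95% Wilson interval 0.990% to 1.04%, counting error only), and was the second largest clonotype of its sample. The 7 months clone had 8030 counts, or 1.51% (1.48% to 1.54%), and had rank 3 in its sample. The 3 and 5 months clones held 0.334% and 0.339%. Outside its own sample the 1.5 months clone reached at most 12 counts, in 2 samples, and the 7 months clone at most 13, in 3 samples. The 3 and 5 months clones were found in no other sample.

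Sharing between samples was less frequent than in the pooled other families. Of TRAV13 clonotypes, 40.5% ± 3.83 (SD, n = 13) had a CDR3 amino-acid sequence that also occurred in the family in another sample, against 49.5% ± 3.28 of other TRAV clonotypes matched within their own family. The difference of -8.94 ± 1.60 percentage points was negative in 13 of 13 samples (permutation test by sign flips, adjusted p = 0.000549). It was -16.2 percentage points against the 3 largest families, TRAV7, TRAV14 and TRAV12. It was -2.75 percentage points (adjusted p = 0.00110) when a match required an identical nucleotide CDR3 on the same V and J genes. With each other family weighted equally, however, the difference was -0.341 percentage points and did not pass the test (adjusted p = 0.646). TRAV13 ranked eleventh from the lowest of 19 classes, next to TRAV8 at 40.5% and the DV genes at 41.8%, while TRAV14 had the highest value at 61.4%. The number of distinct CDR3s that a family holds differs widely between families, and its part in these values was not tested.

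**Figure D5:**
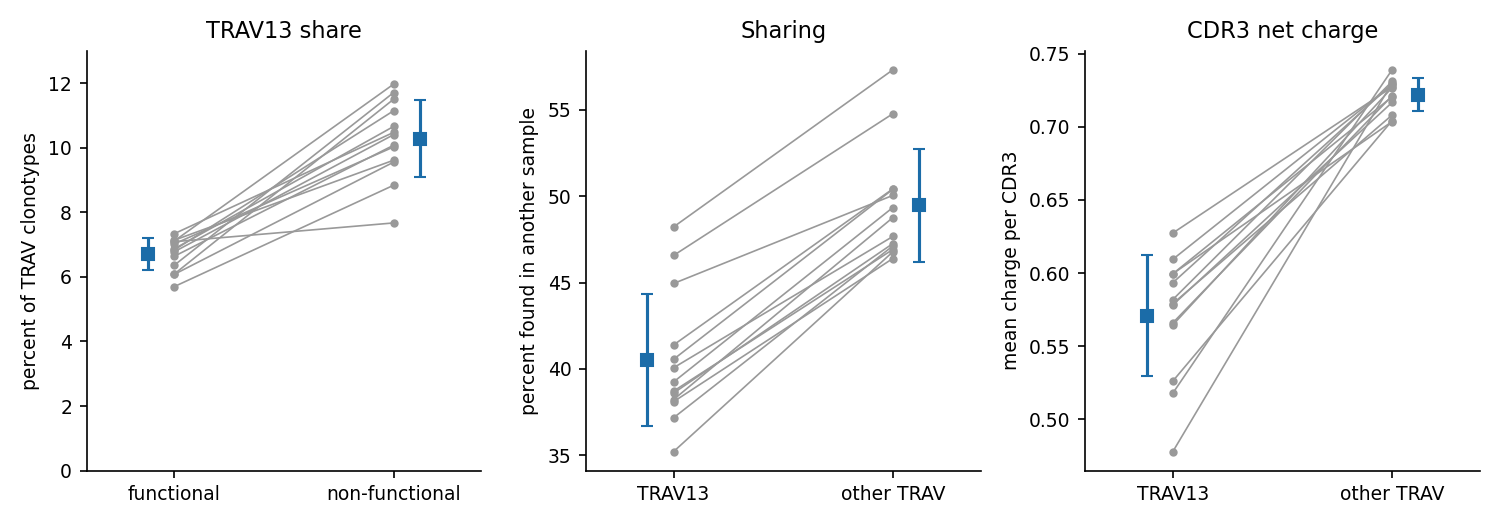
Paired values of the 13 samples (grey lines) with mean and SD (blue squares): TRAV13 percent of TRAV clonotypes, functional and non-functional (left), percent of clonotypes found in another sample (middle) and mean CDR3 net charge (right), for TRAV13 and other TRAV. In all 13 samples TRAV13 has the smaller share among functional clonotypes, less sharing and a lower charge than the value it is paired with.

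Within the family, 44.0% ± 6.13 of CAID, 42.9% ± 4.97 of CALE and 32.3% of CAME clonotypes were found in another sample. Of the 3800 CDR3 amino-acid sequences, 3033 (79.8%) occurred in 1 sample, 709 in 2 to 4 and 58 in 5 or more. For comparison, 76.0% of the CDR3s of the other families, counted within each family, occurred in 1 sample. No TRAV13 CDR3 occurred in more than 10 samples, and of the CDR3s of the other families 0.0702% occurred in 11, 0.0319% in 12 and 0.0276% in 13. Among TRAV13 CDR3s the mean number of inserted bases was 2.71 in those of 1 sample, 1.74 in those of 2 to 4 and 0.965 in those of 5 or more. The mean number of nucleotide sequences per CDR3 was 1.03, 1.61 and 2.83 in the same classes. The number of nucleotide sequences can only grow with the number of samples, so it is given as a description. The 58 most widely shared CDR3s held 0.809% ± 0.487 of functional counts.

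The CDR3 found in the most samples, 10, was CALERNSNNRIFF on TRAV13-1 and TRAJ31. It was encoded in 3 ways, none with a base between the assigned V and J ends. The sequences are shown because they differ at a single base, position 15 from the start of the cysteine codon, which lies in codon 5. That position lies past the 13 germline CDR3 bases of TRAV13-1, and at most 1 of the 3 bases can match a single germline TRAJ31 sequence. The number of inserted bases, taken between the assigned V and J ends, did not count the bases that differ from it. Where the differing bases came from was not tested. Listed in order, they occurred in 9, 1 and 1 samples.
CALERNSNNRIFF, codon cgg: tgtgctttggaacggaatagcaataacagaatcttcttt
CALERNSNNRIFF, codon cgt: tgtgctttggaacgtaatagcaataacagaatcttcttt
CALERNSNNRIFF, codon cga: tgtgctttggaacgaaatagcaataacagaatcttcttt
It was found at each time point and held at most 0.0675% of functional counts in a sample. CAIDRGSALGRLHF and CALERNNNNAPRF occurred in 9 samples each, the latter in 6 nucleotide sequences. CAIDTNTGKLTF and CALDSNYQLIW occurred in 8 samples, and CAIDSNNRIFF in 7, as 1 of 8 CDR3s found in that many. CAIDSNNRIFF, a single nucleotide sequence named TRAV13-2 or TRAV13D-2, reached 0.929% of functional counts in 7 months replicate 1 and had a mean of 0.0832% over samples.

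Each distinct TRAV13 CDR3 was encoded by 1.04 ± 0.0135 clonotypes within a sample, against 1.13 ± 0.0143 among the pooled other families, a difference of -0.0936 ± 0.0106 (permutation test by sign flips, adjusted p = 0.000549, negative in 13 of 13 samples). Much of this size came with the pooling of families. When CDR3s were counted within each V family the difference was -0.0273 (adjusted p = 0.000549), and with families weighted equally it was -0.00963 (adjusted p = 0.0146).

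Over the time course no measure of the family passed the threshold against 1.5 months after adjustment over 18 comparisons. TRAV13 comprised 546 and 460 clonotypes at 1.5 months, 505, 392, 372 and 423 at 3 months, 365 and 293 at 5 months, and 361, 421, 412, 287 and 430 at 7 months. No sample at 5 or 7 months reached the lower of the 1.5 months samples. Relative to 1.5 months there were fewer clonotypes, by a mean difference of -174, at 5 months (exact permutation p = 0.0371, adjusted p = 0.445) and of -121 at 7 months (exact permutation p = 0.0742, adjusted p = 0.445). Without 1.5 months replicate 1 these differences were -131 and -77.8, and without replicate 2 they were -217 and -163.8. Restricted to clonotypes of at least 2 counts, the differences were -147 and -113, each with an adjusted p of 0.0423 by the exact permutation test. All functional clonotypes together numbered 7998 and 6497 at 1.5 months, 5388 and 4828 at 5 months, and 5067, 6354, 5625, 5040 and 6129 at 7 months, and TRAV13's share of them is given above. The fraction of counts taken by the family was 7.94% and 7.39% at 1.5 months, 6.77%, 5.32%, 6.42% and 5.42% at 3 months, 7.30% and 5.30% at 5 months, and 8.03%, 6.63%, 7.22%, 6.64% and 7.06% at 7 months. Every 3 months sample lay below both 1.5 months samples (difference -1.68 percentage points, exact permutation p = 0.0705, adjusted p = 0.445), and the 7 months samples overlapped them.

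The inverse Simpson index within TRAV13, an effective number of equally large clonotypes, was 109 ± 89.1 at 1.5 months (SD, n = 2), 135 ± 43.8 at 3 months (n = 4), 89.1 ± 1.02 at 5 months (n = 2) and 62.5 ± 39.96 at 7 months (n = 5). The pair at 1.5 months stood at 46.4 and 172, so that the whole span of the later means lay between them. Its correlation with months over 13 samples was r = -0.539 (permutation p = 0.0594, adjusted over 6 measures 0.178) with a Spearman rho of -0.480 (permutation p = 0.0995). With the 2 samples removed whose month was farthest from the median, which are both 1.5 months samples, r over 3 to 7 months was -0.697 (permutation p = 0.0140, not adjusted). Leaving out 1.5 months replicate 1 alone gave r = -0.762 (adjusted p = 0.0203), and of the 13 samples it was the only one whose removal brought the trend past the threshold. It holds the clone of 1.02%. The number of clonotypes had r = -0.540 (permutation p = 0.0581, adjusted 0.178), with rho = -0.535 (permutation p = 0.0620), and r = -0.285 (permutation p = 0.394) with those 2 samples removed. CDR3 length, inserted bases, count share and sharing had |r| of at most 0.224, with adjusted permutation p-values from 0.790 to 0.994. With the same 2 samples removed, r was 0.606 for count share (permutation p = 0.0549) and -0.420 for sharing (permutation p = 0.199). For none of the 9 measures did a change over time in the difference between TRAV13 and other TRAV clonotypes pass the test, with adjusted exact permutation p-values of 1.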

How the data were processed

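TCRα cDNA of sorted cells was amplified by 5′ RACE and sequenced by the authors, who aligned reads and assembled clonotypes with MiXCR and removed likely errors by frequency with VDJtools (GRCm38 per the labels). The deposited tables give a raw count per clonotype, whether of reads or molecules not being stated, and the authors' fraction of the sample, which was not used in tests. Non-functional rows were removed here except for the functional comparison. Inserted bases were those between the last V and the first J base as assigned. Bases inside an assigned V or J stretch that differ from the germline were not counted, so insertions can be undercounted. Floors are 3 counts.

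Clonotypes per V class, V gene or J gene were tested with edgeR 4.0.16 (filterByExpr, TMM, quasi-likelihood) and DESeq2 1.42.0 in R 4.3.3. Within-sample differences were tested by all 8192 sign flips over 9 measures, time points by all 540540 arrangements, and trends by 100000 permutations, in Python 3.11.15 with scipy 1.17.1, with Benjamini-Hochberg adjustment. Scripts were tested on simulated data. Positions and germline ends came from GENCODE.

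All TRAV13 genes were named, with up to 5 J genes per direction by smallest p, TRAJ50, the 3 commonest V-J pairs, the 6 CDR3s in most samples and the largest clonotype per time point. Members and lists were chosen with earlier results of these data known. Alternatives changed the count minimum, depth, weighting, comparison families, matching rule and replicate block, and left out samples or sets of clonotypes.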

Additional observations from a re-analysis of the deposited data

Results flagged for a closer look

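In 54 groups of values from 4 or 5 samples, 2 values lay far from the others of their group by Dixon's test. For continuous values this test flags about 1 in 20 groups by chance, a rate that need not hold for shares built on few sequences. TRAV13-3 held 3.57% of TRAV13 clonotypes in 3 months replicate 2, against 1.39% to 1.65% in the other 3 months samples. TRAV13D-3 held 0.538% in 3 months replicate 3, against 0.198% to 0.255%. Over all 13 samples TRAV13-3 had 112 clonotypes and TRAV13D-3 only 11, so a few sequences more or fewer move these percentages. TRAV13-3 and TRAV13D-3 had no mismatch in their aligned sequences.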

How the results depend on the processing

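Of the values of the main comparisons, 550 of 585 obtained by leaving out a sample and 246 of 281 under other settings were counted as unchanged. Many of these had not passed the threshold in the main comparison either, such as the changes of the family share over time. The tally is therefore no measure of how firm the called differences were. For signed values this meant the same direction and the same side of the threshold. For counts of J genes it allowed some movement, such as from 8 to 11 genes higher without the filter on rare ones. The cause of the exceptions was not tested. Without the filter on rare J genes 11 were higher and 8 lower. With at least 10 counts, 9 were higher and 6 lower, the sharing difference at 7 months was 0.236 percentage points and its r with months 0.0250, r of CDR3 length was -0.0833, the difference in inserted bases at 7 months -0.0658, and that in log2 count from other families 0.11. With at least 2 counts the same values were 0.316 for sharing, -0.0716 for r of length, -0.110 for inserted bases with r = -0.0520, -147 and -113 for clonotype numbers at 5 and 7 months, and 0.0253 for log2 count. At equal depth r of length was -0.00928. With summed counts 0 J genes were higher and 0 lower. Against the 3 largest families the differences were 1.46 percentage points for clonotypes without insertions, 0.0525 for hydropathy and -0.19 for log2 count (adjusted p = 0.00352). With families weighted equally, a choice made after seeing the data, they were -0.341 for sharing, -3.25 without insertions and 0.162 inserted bases (adjusted p = 0.0146 each for the last pair), and -0.153 for hydropathy. Weighting by counts gave -0.0168 for hydropathy and 0.206 inserted bases (adjusted p = 0.0497). Without clonotypes 100 times larger elsewhere the length difference at 7 months was 0.00502. Without the 3 libraries that shared the most nucleotide clonotypes (1.5 months replicate 1, 3 months replicate 4 and 5 months replicate 1), also chosen afterwards, sharing at 7 months was 3.57 with r = 0.0953, the inverse Simpson difference at 3 months -37.2, length at 7 months 0.0270, inserted bases -0.0678 and hydropathy -0.00102.

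In numbers of clonotypes per V family, most same-numbered samples did not deviate together, with 3 of 14 pairs of profiles correlating above 0.1 (-0.606 to 0.354). For V genes it was likewise 3 of 14. Within TRAV13 the deviations of these pairs correlated at 0.816 for count share, 0.517 for the inverse Simpson index and 0.434 for sharing. For the other 3 measures they correlated at -0.118 to 0.0892. Same-numbered samples thus tended to deviate together in the count share of the family, and the main tests over time used no replicate block. With a replicate block the log2 change of the family share was 0.0144 at 3 months and 0.0285 at 7 months, the length difference at 3 months was -0.0153, and no call changed.

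Leaving out 1 sample at a time gave ranges of -0.0181 to 0.0517 for the log2 family change between 7 and 3 months, -0.00454 to 0.00792 for hydropathy and -0.211 to 0.0208 for expanded clonotypes. Against 1.5 months the ranges at 3, 5 and 7 months were -0.0173 to 0.0382, -0.0216 to 0.234 and -0.0344 to 0.0270 for length, -0.138 to 0.0706, -0.108 to 0.558 and -0.0678 to 0.141 for inserted bases, and -37.4 to 88.6, -83.3 to 42.7 and -110 to 16.0 for the inverse Simpson index, and sharing at 7 months ran from -1.997 to 2.801. For r with months they were -0.762 to -0.433 for the inverse Simpson index, -0.404 to 0.153 for sharing, -0.00496 to 0.364 for count share and -0.156 to 0.120 for length. Where a time point of 2 samples was left with 1, that sample was assumed to vary like the others. With 287 to 546 TRAV13 clonotypes per sample, rare genes such as TRAV13D-3 rested on few sequences.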
